A study of Mus musculus with 11 samples.

Results

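The nuclei described here are the microglia nuclei of non-transgenic mice, taken from single-nucleus RNA sequencing of frozen mouse cortex with 1 droplet library per mouse. A nucleus was counted as one if it had 300 to 8000 genes, at most 5% mitochondrial UMIs, at least 3 of 10 microglial marker genes with a UMI (a molecular tag that stands for 1 captured RNA molecule) and at most 1 UMI of Slc17a7, the glutamate transporter of excitatory neurons. The 10 markers were Inpp5d, Csf1r, Ly86, Siglech, Selplg, Ikzf1, Runx1, Dock8, Cx3cr1 and P2ry12. This rule found 1279 nuclei among the 38460 that passed the limits on genes and mitochondrial share in these 4 mice, or 3.32% ± 0.619 (SD, n = 4) of a mouse's nuclei. Non-transgenic mice 1 to 4 gave 259, 321, 294 and 405 of them, and the other 37181 nuclei of the same libraries, which are mostly neurons and macroglia, were the comparison. The rule uses measured values, so every difference between the microglia nuclei and the other nuclei below is a description and was not tested.

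The 4 mice were labelled female, wild type for Ikbkb (ikbkb+/+) and free of the P301S tau transgene, and belonged to the controls of a study on IKKβ, the kinase that activates NF-κB. They came from 2 breeding lines, told apart by the prefix of their titles. Mice 1 and 2, both aged 10.03 months, came from the line with a floxed Ikbkb gene. Mice 3 and 4, aged 10.85 and 9.8 months, came from the line that carries a constitutively active IKKβ behind a stop cassette at the Rosa26 locus. Per the study's methods, none of these 4 mice carried the inducible Cre driven by Cx3cr1, so both Cx3cr1 copies were intact, the floxed exon stayed in place and the active kinase stayed silent. They were set against 3 P301S mice, also labelled female, without Cre and wild type for Ikbkb, of which mice 1 and 2 (9.15 and 10.03 months) came from the floxed line and mouse 3 (10.75 months) from the active line. The P301S transgene makes human tau with the P301S mutation in neurons and leads to tau deposits with age. The other 4 mice of the series were P301S mice with 1 Cx3cr1 copy given up to Cre. In 2 of them (8.39 and 9.15 months, floxed line) Ikbkb was deleted in Cx3cr1-expressing cells. In the other 2 (10.85 and 9.8 months, active line) the active IKKβ was switched on in such cells. All 4 entered the fits as further groups that share the estimate of spread. The study's methods give tamoxifen to mice with Cre and also to Cre-free littermate controls. The study's methods, unlike the labels, give male mice for RNA sequencing, so the sex of these mice is uncertain. The labels do not say whether mice were littermates.

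Microglia are the resident macrophages of the brain parenchyma. They arise from yolk sac progenitors, depend on the receptor Csf1r for survival and on transforming growth factor β for their mature state, and scan the tissue with fine processes that follow ATP and ADP through purinergic receptors. Their identity rests on transcription factors such as PU.1 (encoded by Spi1), Runx1 and Sall1. Under injury or protein deposits they lower the so-called homeostatic genes and raise disease-associated genes such as Apoe, Cst7 and Axl.

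The microglia nuclei were shallow. Their median was 1725, 1986, 1812 and 2252 UMIs in mice 1 to 4, against 8386.5, 8870.0, 8027 and 6512 in the other nuclei, and each mouse's microglia nuclei summed to between 662335 and 1334530 UMIs. All levels below are CPM, UMIs scaled to 1e6 UMIs of the summed nuclei, which are not divided by gene length and so do not rank one gene against another. RNA of other cells was present: transcripts of 23 neuronal marker genes made up 2.38% ± 0.146 of UMIs in the microglia nuclei and 4.53% ± 0.220 in the other nuclei. Of the microglia nuclei, 209 (16.3%) held at least 2 UMIs of each of 2 or more markers of another brain cell type, and are called mixed below. A doublet caller marked 144 (11.3%). Mouse 4 had the larger shares, 23.7% mixed and 18.8% marked as doublets, against 11.6% to 13.7% and 6.80% to 8.72% in mice 1 to 3. Across all 11 libraries 1556 barcodes occurred in more than 1 library, and 1 barcode of a microglia nucleus was shared between non-transgenic mice.

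Some of the genes most raised in these nuclei carried, next to their start site, the motif GAGGAAGT, a core that PU.1 binds. Promoter windows of 300 bases (RefSeq, GRCm38.p6, 250 bases before and 50 after a start) were at hand for 200 of the 256 genes with a log2 ratio over 4 in all 4 mice, with 262 windows. An exact match on either strand was found in 30 of these windows (11.5%) and in 1052 of all 32851 windows (3.20%). By gene, 29 of the 200 (14.5%) and 997 of all 27025 (3.69%) had a match, and no test of this difference was run. The core CCGGAAGT, bound by many other ETS factors of the PU.1 family, was found in 4 of the 262 windows (1.53%) and in 1277 of all windows (3.89%). Both motifs end in GGAAGT, so no stretch can match both at the same base, and a match is a description and not a measured binding site. The windows of 5 genes that the results name are shown because each has 1 match, written in capitals (GAGGAAGT, or its reverse complement ACTTCCTC). They belong to Inpp5d, encoding the lipid phosphatase SHIP1 (chr1:87620062-87620361, plus strand), Ctss, encoding cathepsin S (chr3:95526536-95526835, plus), C1qc, encoding a chain of complement C1q (chr4:136892865-136893164, minus), Slco2b1, encoding an organic anion transporter (chr7:99711291-99711590, minus), and Fgd2, encoding an exchange factor for Cdc42 (chr17:29360664-29360963, plus). Each is written 5′ to 3′ on its gene's strand.
Inpp5d: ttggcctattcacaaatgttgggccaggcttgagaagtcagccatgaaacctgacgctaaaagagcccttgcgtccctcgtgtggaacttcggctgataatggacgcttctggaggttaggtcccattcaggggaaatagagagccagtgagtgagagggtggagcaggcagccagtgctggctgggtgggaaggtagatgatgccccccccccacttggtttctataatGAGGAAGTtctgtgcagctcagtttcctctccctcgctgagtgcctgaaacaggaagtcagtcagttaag
Ctss: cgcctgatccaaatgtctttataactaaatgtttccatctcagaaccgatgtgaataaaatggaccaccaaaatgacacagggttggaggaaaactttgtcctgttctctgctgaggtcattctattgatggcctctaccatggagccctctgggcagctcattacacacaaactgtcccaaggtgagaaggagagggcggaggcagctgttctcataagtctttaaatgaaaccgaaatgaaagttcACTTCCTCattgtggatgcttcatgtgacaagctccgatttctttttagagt
C1qc: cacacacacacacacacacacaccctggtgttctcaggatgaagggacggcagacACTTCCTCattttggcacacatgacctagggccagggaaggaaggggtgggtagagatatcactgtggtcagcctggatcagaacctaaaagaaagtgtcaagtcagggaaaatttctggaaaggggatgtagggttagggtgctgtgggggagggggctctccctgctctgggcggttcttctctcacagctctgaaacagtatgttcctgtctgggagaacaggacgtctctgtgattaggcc
Slco2b1: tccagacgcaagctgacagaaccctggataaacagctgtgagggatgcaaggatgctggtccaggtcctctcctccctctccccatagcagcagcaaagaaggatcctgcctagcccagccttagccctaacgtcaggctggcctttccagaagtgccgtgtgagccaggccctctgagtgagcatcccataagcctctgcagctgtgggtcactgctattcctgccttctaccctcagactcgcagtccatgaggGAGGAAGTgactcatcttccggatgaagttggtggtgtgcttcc
Fgd2: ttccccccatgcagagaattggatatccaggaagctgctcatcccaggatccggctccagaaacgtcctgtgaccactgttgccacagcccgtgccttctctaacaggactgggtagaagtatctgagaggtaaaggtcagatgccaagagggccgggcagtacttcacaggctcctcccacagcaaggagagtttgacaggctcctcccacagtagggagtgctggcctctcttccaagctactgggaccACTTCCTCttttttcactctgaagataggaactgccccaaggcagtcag
The match began 20 bases before the start site in Inpp5d, 2 bases before it in Ctss and 195 bases before it in C1qc, while in Slco2b1 and Fgd2 it lay within the first transcribed bases.

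In homeostatic UMIs, nuclei just inside the rule's limit of 3 markers were nearer to those outside it than to the rest of the microglia nuclei, while in depth and in the share of mixed nuclei they were nearer to the rest. Homeostatic genes outside the rule were used to look at nuclei on either side of it, as their summed UMIs per 10000 UMIs, among nuclei with at most 1 Slc17a7 UMI. Nuclei with 0, 1 and 2 markers (24935, 3803 and 286 nuclei) had 1.15, 1.0002 and 0.905 homeostatic UMIs per 10000. Just inside the limit, the 33 nuclei with 3 markers had 4.97 and the 27 nuclei with 4 markers had 23.8. From 5 to 10 markers the value lay between 49.0 and 61.5. The median homeostatic UMIs of a nucleus were 1 at 2 markers, 2 at 3 and 5 at 4, and 10 to 18 from 5 markers on. Nuclei with 2 markers were large, with a median of 10776.5 UMIs, and 93.7% of them were mixed, whereas nuclei with 3 markers had a median of 1850.0 UMIs and 48.5% were mixed. Most microglia nuclei were far from the limit: 1039 (81.2%) had 7 or more markers and 60 (4.69%) had 3 or 4. A further 58 nuclei had 3 or more markers but 2 or more Slc17a7 UMIs. They had a median of 14820.5 UMIs, 98.3% of them were mixed and 67.2% were marked as doublets.

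**Figure D1:**
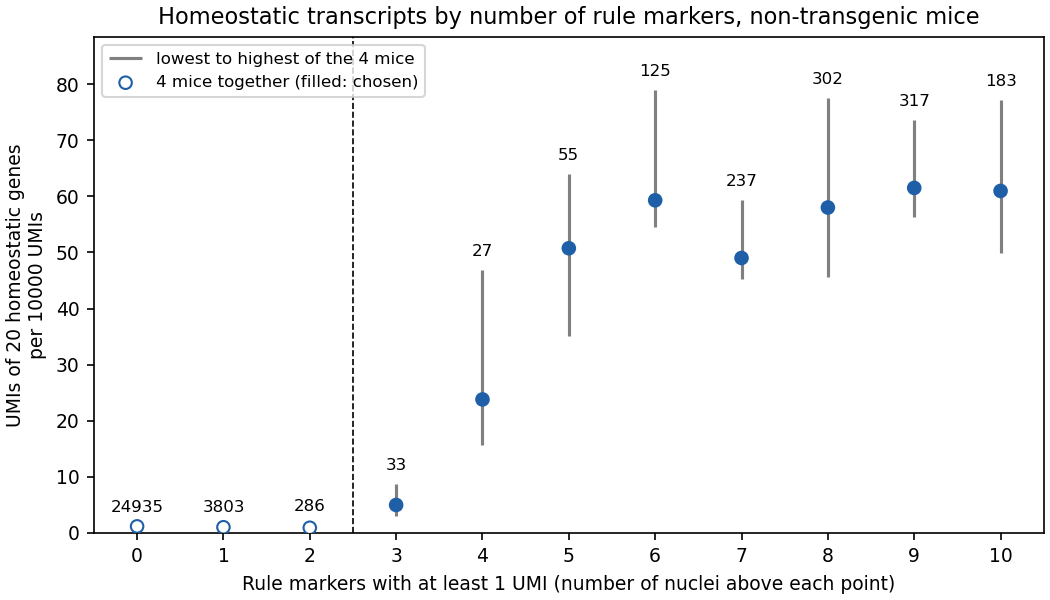
Homeostatic UMIs per 10000 UMIs (y axis) of nuclei grouped by how many of the 10 rule markers had a UMI (x axis), pooled over the 4 non-transgenic mice, with bars from the lowest to the highest mouse; the dashed line is the rule's limit. The value was 0.905 at 2 markers, 4.97 at 3 and between 49.0 and 61.5 from 5 markers on.

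Over 26023 genes detected in the 4 libraries, 777 (2.99%) were higher in the microglia nuclei by over 2 on the log2 scale in all 4 mice, and 0 (0%) were lower by as much. The log2 ratio is that of CPM plus 1 in microglia nuclei over CPM plus 1 in the other nuclei of the same mouse, and its median over all genes detected was -0.02. The 10 rule markers, which had to be high, ranged from 6.06 for P2ry12, the ADP receptor that guides microglial processes, to 8.74 for Inpp5d. Inpp5d was at 1625, 1477, 1919.9 and 1813 CPM in mice 1 to 4, and at 3.13 ± 1.32 CPM in the other nuclei. It had a UMI in 95.4% of microglia nuclei and 1.96% of the other nuclei, which are deeper. P2ry12 was at 793, 780.0, 499 and 528 CPM against 8.58 ± 1.21 CPM, and had a UMI in 73.3% and 6.59% of nuclei. With every nucleus thinned to 1000 UMIs, which left out 7 microglia nuclei as too shallow, these shares were 82.5% and 0.217% for Inpp5d and 51.9% and 0.683% for P2ry12.

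Homeostatic genes outside the rule stood next to the markers. Of 20 genes, 19 were higher in all 4 mice, and the median log2 ratio of the list was 5.65. Ctss, a lysosomal protease of macrophages, was at 387, 332, 383 and 312 CPM against 0.706 ± 0.289 CPM in the other nuclei, a log2 ratio of 7.71 ± 0.37 (SD, n = 4). It had a UMI in 56.2% of microglia nuclei and 0.527% of the others. Tmem119, a membrane protein found in microglia and not in other brain macrophages, was at 115, 125, 106 and 103 CPM against 0.285 ± 0.0816 CPM, a ratio of 6.46 ± 0.21. Tgfbr1, the receptor for the growth factor that maintains microglia, was at 1507, 1287, 1584 and 1238 CPM against 16.9 ± 3.23 CPM. In each of these genes the lowest mouse was far above the other nuclei of every mouse. Olfml3, a secreted glycoprotein, varied most in its log2 ratio, which was 4.89 ± 1.11. It was at 78.5, 71.9, 45.7 and 15.7 CPM, high in the mice of the floxed line and low in mouse 4. Without the border macrophage nuclei described below, 18 of the 20 counted as higher, since Cd164, a sialomucin, was at 1.93 in mouse 3. The gene that did not count as higher was Itgam, encoding the integrin CD11b, with 1 UMI in all microglia nuclei together.

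**Figure D2:**
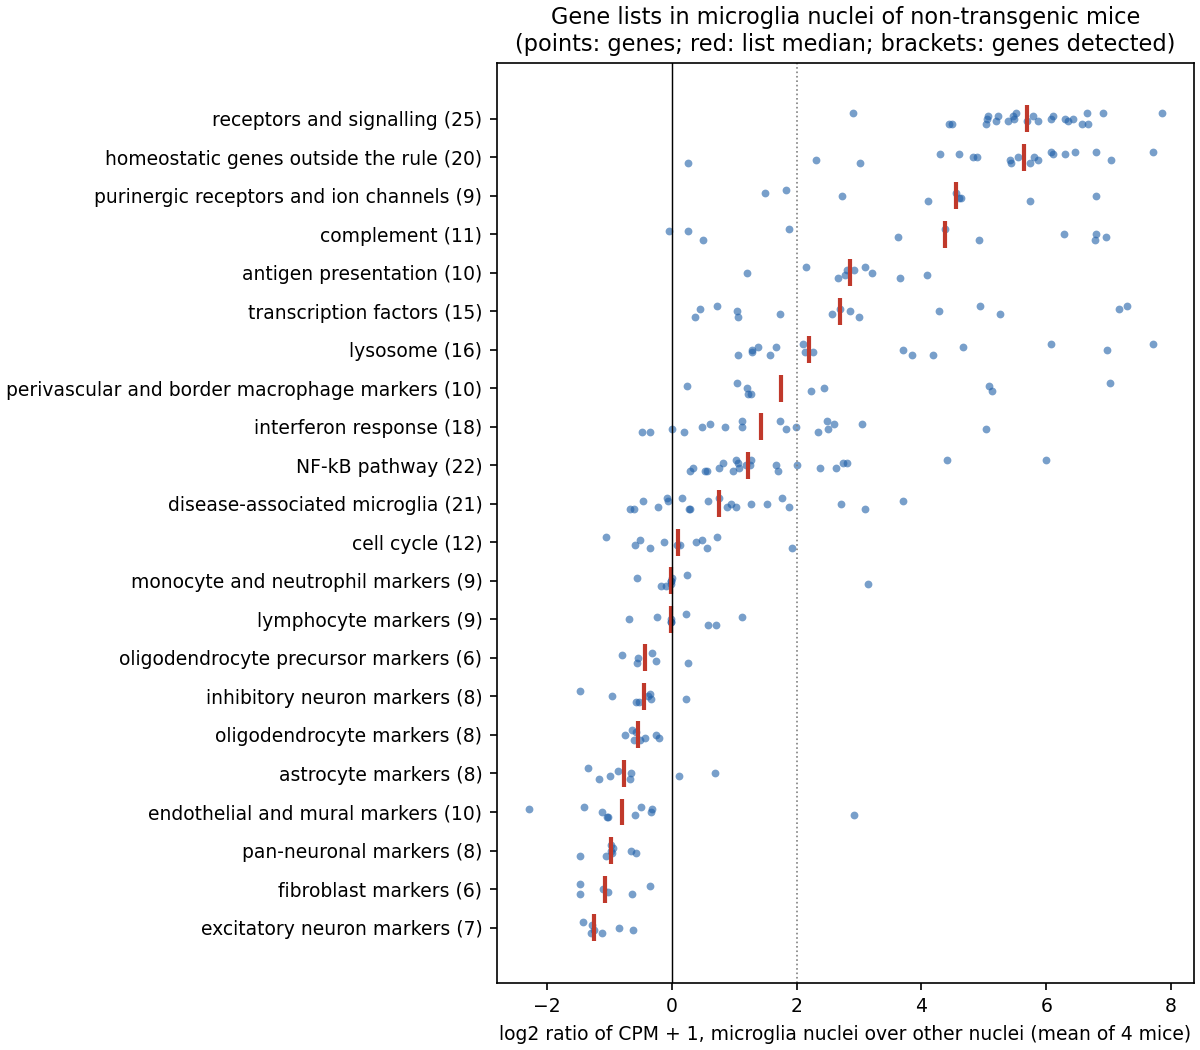
Log2 ratio of CPM plus 1 in microglia nuclei over CPM plus 1 in the other nuclei (x axis), for each list of genes (y axis); points are genes, averaged over the 4 non-transgenic mice, and bars are list medians. Medians ran from 5.65 for homeostatic genes and 5.69 for receptors and signalling genes down to values near or below 0 for markers of neurons, macroglia and vessels.

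Transcription factors split into those far higher in these nuclei and those nearer to the level of the other nuclei. Of 15 detected, 9 were higher in all 4 mice, with a median of 2.69. Fli1, an ETS factor of blood and vessel cells, had a log2 ratio of 7.29 ± 0.24 at 788, 773, 905 and 770.3 CPM. Spi1 had 7.17 ± 0.31 at 140.4, 146, 214 and 207 CPM against 0.222 ± 0.145 CPM. Sall1, a repressor that keeps the microglial state, had 5.25 ± 0.37. Mef2c, which acts in neurons as well, was at 1528, 1539, 1398 and 963 CPM in the microglia nuclei and 821 ± 191 CPM in the others, a ratio of 0.73 ± 0.07. Although low, that ratio was steady over the mice.

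Receptors and signalling genes were higher without exception. All 25 genes detected of 26 counted as higher, with a median of 5.69. Csf3r, the receptor for granulocyte colony-stimulating factor, led them with a log2 ratio of 7.85 ± 0.29 at 374, 337, 383 and 459 CPM. Vav1, an exchange factor for Rac, followed with 6.90 ± 0.33, and Apbb1ip, which activates integrins, with 6.66 ± 0.49. Plcg2, the phospholipase that acts below Trem2, was at 236, 231, 300.6 and 259 CPM against 1.57 ± 0.232 CPM. Trem2, the lipid receptor of the disease response, was at 107, 106, 85.5 and 83.9 CPM against 0.424 ± 0.161 CPM, and its adaptor Tyrobp at 40.8, 36.0, 42.7 and 27.7 CPM. The least raised receptor was Tlr2, which senses bacterial lipopeptides, with a ratio of 2.90 ± 0.49 at 6.04, 11.3, 5.89 and 4.50 CPM. Tlr7, which senses single-stranded RNA, was at 110.2, 122, 147 and 70.4 CPM.

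Purinergic receptors and ion channels counted 7 of 9 as higher, with a median of 4.56. P2ry6, the UDP receptor linked to phagocytosis, had a log2 ratio of 6.79 ± 0.26 at 142, 119, 168 and 178 CPM. P2rx7, an ATP-gated channel, had 4.10 ± 0.45 at 184, 189, 267 and 205 CPM, and the other nuclei held 11.4 ± 2.46 CPM. Kcnk13, the potassium channel that sets the resting potential of microglia, was at 259.7, 245, 271 and 211 CPM against 37.1 ± 8.83 CPM, a ratio of 2.72 ± 0.47.

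Among complement genes, the C1q chains and some of the receptors were high and C3 was not detected. The receptor chains Itgax and Itgam did not count as higher, and the level of Itgam is uncertain, as described below. Of 11 genes, 7 were higher, with a median of 4.38. The C1q chains C1qa, C1qb and C1qc, which open the classical pathway, had log2 ratios of 6.79 ± 0.45, 6.96 ± 0.40 and 6.79 ± 0.38. C1qb was at 242, 200.4, 192 and 148 CPM against 0.555 ± 0.132 CPM, and had a UMI in 40.1% of microglia nuclei against 0.448% of others. C3, the central component, had 0 UMIs in all 4 mice, which allows at most 0.822 CPM (3 counts in the 3648683 UMIs of all microglia nuclei; this limit covers counting error only). The C3a receptor C3ar1 was at 30.2, 30.8, 30.9 and 12.7 CPM, lowest in mouse 4.

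Antigen presentation genes were in part higher than in the other nuclei and uneven between mice. Of 10 genes, 4 were higher in all 4 mice, with a median of 2.86. These were the class I genes B2m, H2-K1 and H2-D1 and the peptide transporter Tap1. B2m, the shared light chain of class I, was at 48.3, 50.4, 79.6 and 41.2 CPM. The class II genes missed the count because of mouse 4: Cd74, the invariant chain, was at 21.1, 38.0, 38.3 and 3.00 CPM, and H2-Aa at 4.53, 18.5, 19.2 and 0.749 CPM. A small set of nuclei that held many of these UMIs is described below.

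Lysosomal genes were split. Of 16, 8 were higher, with a median of 2.20. Beside Ctss these included Laptm5, a lysosomal membrane protein of blood cells (6.98 ± 0.28), Lgmn (4.67 ± 0.15), Cd68 (4.19 ± 0.50), Ctsz (3.85 ± 0.37) and Grn, encoding progranulin (3.70 ± 0.34). Genes that every cell uses for its lysosomes were nearer to the other nuclei: Lamp1 was at 75.5, 63.7, 72.2 and 40.5 CPM against 29.0 ± 2.66 CPM, a ratio of 1.06 ± 0.35, and Ctsl had 1.39 ± 0.11.

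Genes of the disease-associated state were mostly near the level of the other nuclei. Of 21 genes detected of 22, 3 were higher, Cd9, Ccl6 and Cd83, and the list's median was 0.76, or 0.33 without the border macrophage nuclei described below. Cd9, a tetraspanin, was at 163, 156, 78.1 and 73.4 CPM, with the floxed-line mice above the active-line mice. Apoe, the lipid carrier that astrocytes make in quantity, was at 116, 212, 183 and 59.9 CPM against 63.2 ± 9.91 CPM, a ratio of 1.02 ± 0.73. Cst7, a cystatin that leads the state in disease models, and Ch25h, which makes an oxysterol, had 0 UMIs in all 4 mice, which again allows at most 0.822 CPM. Itgax was at 3.02, 3.08, 4.42 and 1.499 CPM and Axl at 10.6, 3.08, 5.89 and 7.49 CPM. Spp1, osteopontin, had 3 UMIs in all.

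Part of the NF-κB pathway was higher in these nuclei. Of 22 genes, 6 were higher, with a median of 1.22: Tnfrsf1b and Tnfrsf1a, both receptors for TNF, the cytokine Il1a, the subunit Rel, the inhibitor Nfkbie and the kinase Map3k14. Tnfrsf1b had a log2 ratio of 6.0003 ± 0.30 at 83.0, 89.4, 111 and 115 CPM. Ikbkb itself, the gene the study alters in other mice, was at 121, 96.6, 118 and 103 CPM in the microglia nuclei and at 47.5 ± 4.18 CPM in the others, a ratio of 1.19 ± 0.20. The 4 mice, all labelled ikbkb+/+, were close together in it. Nfkb1 was at 291, 295, 330.1 and 282 CPM against 93.3 ± 7.06 CPM. Nfkbia, the feedback inhibitor, was at 9.06, 2.06, 19.2 and 8.24 CPM, and the cytokines Il1b and Tnf had 1 and 3 UMIs in all.

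Interferon response genes counted 3 of 18 as higher, with a median of 1.44. They were Trim30a (5.03 ± 0.39), Rnf213 (3.05 ± 0.26) and the RNA sensor Ifih1 (2.49 ± 0.36). Trim30a was at 107, 88.4, 146 and 76.4 CPM, highest in mouse 3. Isg15 and Ifit1, which rise strongly under interferon, had 0 UMIs. Of 12 cell cycle genes, 0 were higher in all 4 mice, against 2.99% of all genes. The proliferation marker Mki67 was at 1.51, 5.14, 4.42 and 0.749 CPM, and 9 of 9 UMIs of Top2a, the mitotic topoisomerase, were in mouse 2.

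Markers of neurons, macroglia and vessels had list medians below 0 but were still present, with an exception that blood cells share. The medians were -1.24 for 7 excitatory neuron markers, -0.45 for 8 inhibitory neuron markers, -0.76 for 8 astrocyte markers and -0.54 for 8 oligodendrocyte markers. They were -0.43 for 6 oligodendrocyte precursor markers and -0.80 for 10 endothelial and mural markers. None of the neuronal or macroglial markers was higher in all 4 mice. Yet all 1279 microglia nuclei had a UMI of 2 or more pan-neuronal markers. For excitatory neuron markers this share was 42.9%, for astrocyte markers 22.8% and for oligodendrocyte markers 15.3%. The vascular exception was Pecam1 (2.91), which white blood cells also express. Of the monocyte and neutrophil markers, only Ccr2 was higher (3.15), with 15 of its 31 UMIs in the border macrophage nuclei described below. Without those nuclei it was at 2.18 CPM in mouse 2, against 15.4 CPM with them, with a log2 ratio of 1.64 there, and no longer counted as higher. In the same list the neutrophil genes S100a8 and S100a9 had ratios of -0.01 and 0.00. Rbfox3, the neuronal nuclear protein NeuN, was at 236, 249, 229.9 and 379 CPM, highest in mouse 4, where the share of mixed nuclei was also highest. It was at 754 ± 165 CPM in the other nuclei.

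Some genes in no list had ratios in the range of the rule markers. Of 1812 genes with a UMI in at least 20% of microglia nuclei of every mouse, 259 were higher in all 4 mice. The leading 15 of them in no list ran from Slco2b1 at 8.36 to Bin2 at 7.03. Slco2b1 was at 735, 637, 747 and 869.97 CPM against 1.32 ± 0.626 CPM. Most of the others act on the cytoskeleton and on small GTPases or relay signals from immune receptors: Arhgap45, Dock2, Fgd2, Cyth4, Myo1f, Abi3, Adap2, Rhoh and Bin2 belong to the first kind, and Fyb and Pik3ap1 are adaptors of the second. Fgd2 was steady, at 376, 358, 383 and 358 CPM with a ratio of 7.71 ± 0.34. Cd86 and Vsir encode a costimulatory and an inhibitory ligand for T cells, with 211, 203, 293 and 182 CPM for Cd86. The long non-coding RNA 8030442B05Rik was at 391, 388, 339 and 354 CPM with 7.68 ± 0.28.

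Some microglial genes could not be read from these counts. Irf8, a defining factor of microglia, had 0 UMIs in the microglia nuclei and 0 in the other nuclei. In GENCODE M21 (GRCm38), all of its span on chromosome 8 lies within Gm20388 on the same strand, which had 1501 UMIs in the microglia nuclei and 112445 in the others. Myd88 (0 UMIs) lies in the same way within Slc22a14 (68 UMIs in microglia nuclei). Itgam (1 UMI) and Adora3 (0) are each overlapped over 99.9% of their length, by Gm49368 (17) and Tmigd3 (36). Ctsd, a lysosomal protease, is overlapped over 55.7% of its length by Gm49369 and had 10 UMIs. Reads that fit both genes of such a pair cannot be assigned to one, so these levels are uncertain and their low values are not levels of the gene. Cx3cr1 is overlapped over 21.2% of its annotated span.

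A small number of the microglia nuclei carried genes of perivascular and border macrophages, the long-lived macrophages along vessels and in the meninges. Nuclei with a UMI of 2 or more of 9 such markers (Mrc1, F13a1, Cd163, Lyve1, Pf4, Ms4a7, Cbr2, Cd209f and Mgl2) numbered 40 of 1279 (3.13%), with 5, 18, 13 and 4 in mice 1 to 4. Another marker of the list, the scavenger receptor Stab1, was left out after its values were seen, since 483 of its 630 UMIs lay in the remaining nuclei, and with it counted there were 45 such nuclei. They had a median of 5, 6, 5 and 4 rule markers in mice 1 to 4, where the remaining microglia nuclei had 8 in each mouse. As these nuclei were chosen by the markers, what follows is a description. Of the whole list of 10 markers, 3 were higher than in the other nuclei in all 4 mice, and its summed level in the microglia nuclei was 259.7, 461, 567 and 181 CPM in mice 1 to 4.

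Genes that the choice did not use went with it. The 40 nuclei held 3.44% of all UMIs of the microglia nuclei but 76.2% of those of Dab2, an adaptor for endocytosis: 1578 CPM against 17.6 CPM in the remaining microglia nuclei. They held 49.9% of Rbpj, the transcription factor of Notch signalling (2439 against 87.1 CPM), and 46.0% of Apoe (1786 against 74.6 CPM). Aoah, an enzyme that inactivates lipopolysaccharide, was at 462 against 5.68 CPM. Of 192 UMIs of the class II genes H2-Aa, H2-Ab1, H2-Eb1 and Cd74, 91 (47.4%) were in them. Mice 2 and 3 gave most of these 91, while mouse 1 held such UMIs only in its remaining microglia nuclei. Adarb2, an RNA-binding protein of interneurons, was also far higher in the 40 nuclei (4607 against 338 CPM), but 542 of its 578 UMIs in the 40 nuclei came from mouse 2.

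The genes that set microglia apart from border macrophages were at or near 0 in the same nuclei. Tmem119, Sparc, Slc2a5, Olfml3 and Crybb1 had 0 UMIs there, which allows at most 23.9 CPM (3 counts in 125451 UMIs), against 116, 188, 82.3, 49.4 and 53.4 CPM in the remaining microglia nuclei. Tmem119 was thus at least 4.84-fold lower and Sparc, a matrix-binding glycoprotein, at least 7.87-fold lower. Sall1 had 1 of its 723 UMIs there, the Golgi protein gene Golm1 1 of 599 and Cd9 1 of 411. Siglech was at 95.7 against 539 CPM. Spi1, a factor of all macrophages, was at 215 CPM in them and 179 CPM in the remaining microglia nuclei, and Fli1 at 980.5 and 793 CPM.

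**Figure D3:**
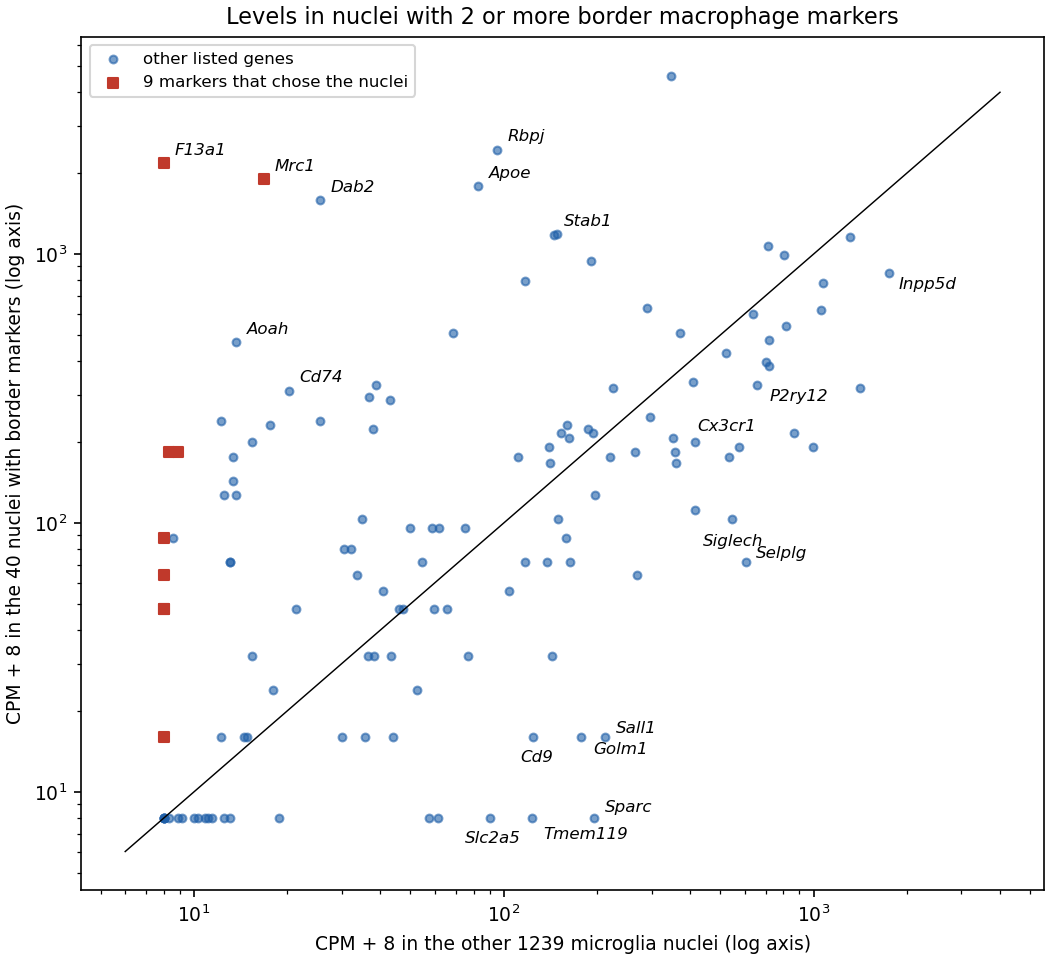
CPM plus 8 over the 40 nuclei with 2 or more border macrophage markers (y axis) against CPM plus 8 over the remaining 1239 microglia nuclei (x axis), both on log axes, for genes of the lists and the leading genes; red squares are the 9 markers that chose the nuclei and the line marks equal levels. Dab2, Rbpj and Apoe lie above the diagonal, and Tmem119, Sparc and Slc2a5, with 0 UMIs in the 40 nuclei, lie at the bottom.

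The 40 nuclei moved the level of several genes between mice. With them, Rbpj was at 177, 194, 295 and 80.2 CPM in mice 1 to 4 (mean 186 ± 87.9). Without them it was at 94.9, 97.2, 95.6 and 72.2 CPM (mean 90.0 ± 11.9). Apoe went from 116, 212, 183 and 59.9 CPM (143 ± 68.1) to 79.6, 106, 59.6 and 57.7 CPM (75.7 ± 22.5). Cd74 went to 21.4, 20.8, 14.1 and 0.760 CPM, which left mouse 4 low. Stab1, with 23.3% of its UMIs in the 40 nuclei, went from 149, 172, 253 and 144 CPM to 121, 131, 158 and 139 CPM, with the most lost in mouse 3.

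In thinned counts, variation between nuclei within a mouse was near that of counting for most genes. The Fano factor (variance over mean of UMIs, 1 for counting noise alone) was taken over nuclei thinned to 1000 UMIs for 1847 genes with a mean of at least 0.1 UMI in every mouse. Its median was 1.10, and 34 genes exceeded 2. At means this low counting noise dominates, so a factor near 1 does not show that nuclei had equal levels of a gene. The 10 rule markers had a median of 1.36. The 10 highest genes were Rbpj at 4.54 (0.994 to 6.26 over mice), Adarb2 at 4.23, Gpc5 at 3.85, Slc1a2 at 3.71, Rbfox1 at 3.51, Kirrel3 at 3.39, Nrxn3 at 3.37, Lhfpl3 at 3.21, Erbb4 at 3.01 and Lsamp at 2.99. Rbpj marked the border macrophage nuclei, Gpc5 and Slc1a2 are astrocyte genes, Lhfpl3 belongs to oligodendrocyte precursors, and the remaining ones are genes of neurons.

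Without the mixed and the border macrophage nuclei, which left 1029 nuclei, 7 genes exceeded 2. Rbpj was then at 1.07, Gpc5 at 1.01, Slc1a2 at 1.02, Rbfox1 at 1.23 and Adarb2 at 1.32. Gpc5, Slc1a2 and Lhfpl3 are among the markers that define mixed nuclei, so leaving those nuclei out had to lower them. The median was 1.08. Genes that kept a factor over 2 included the mitochondrial transcript mt-Co3 (2.85 before and 2.86 after) and Lrmda (2.23 and 2.15). Among genes raised in microglia, P2rx7 went from 1.64 to 0.993 and Stab1 from 1.64 to 1.02.

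**Figure D4:**
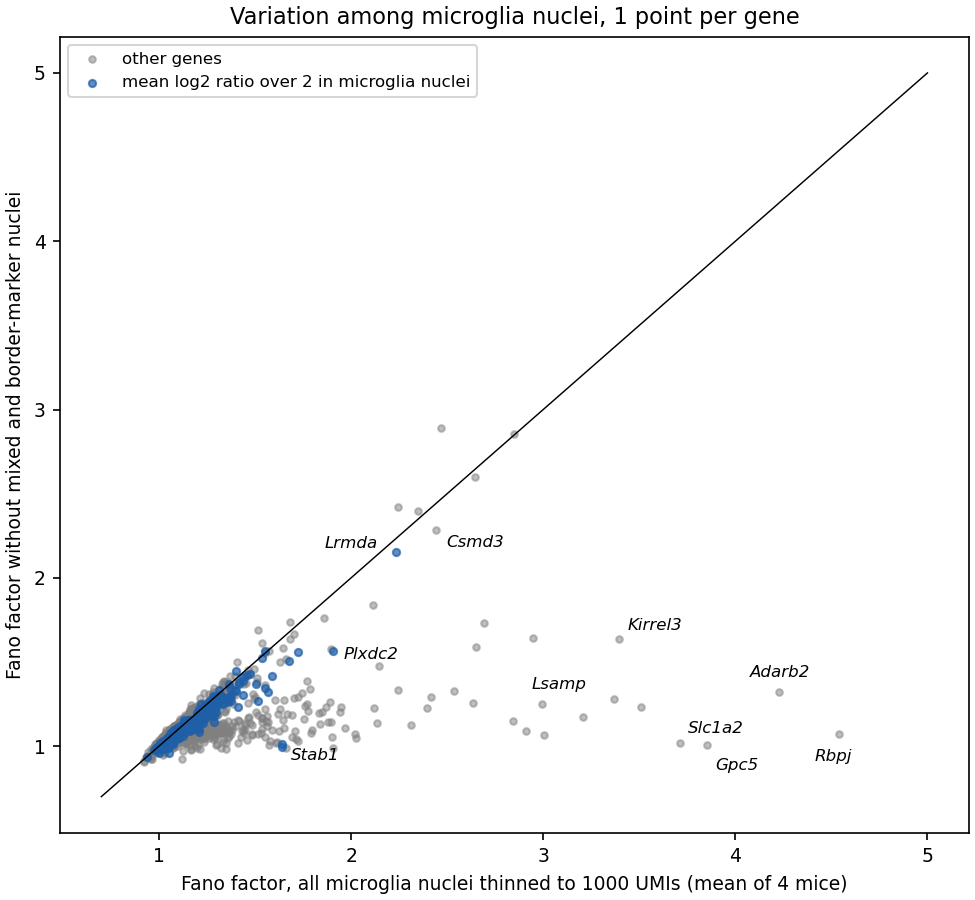
Fano factor of each gene among microglia nuclei thinned to 1000 UMIs, averaged over the 4 non-transgenic mice, with all nuclei (x axis) and without mixed and border macrophage nuclei (y axis). Rbpj moved from 4.54 to 1.07 and Slc1a2 from 3.71 to 1.02, while mt-Co3 stayed at 2.85 and 2.86.

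Both breeding lines make up the non-transgenic group, and the rule does not use the line, so the lines could be tested. Raw UMIs summed per mouse were fitted with edgeR's quasi-likelihood test over all 11 mice, and calls needed both a log2 fold change over 0.1 in size and p under 0.05 after Benjamini-Hochberg adjustment. Of 11541 genes, 1 (0.00866%) was called between the active and the floxed line, and 753 had an unadjusted p under 0.05. It was Gm16867, a gene model of unknown function (chr14:69363504-69503362, minus strand), lower in the active line with an adjusted p of 0.00862 (edgeR). Its UMIs were 29 and 62 in the floxed-line mice and 0 and 0 in the active-line mice, so the fold is at least 37.3 (55.6 CPM over the floxed-line pair against 3 counts, or 1.49 CPM, over the active-line pair). The call was lost without mouse 2 (adjusted p = 0.205, edgeR) or mouse 4 (adjusted p = 0.0772). Copies of the gene that could share its reads were not looked for. The difference was also seen outside the microglia nuclei: in the other nuclei the gene was at 13.1 and 23.3 CPM in the floxed-line mice and 0.0662 and 0.112 CPM in the active-line mice. The P301S mouse of the active line had 29.9 CPM in its microglia nuclei, near the lowest of all floxed-line mice (38.2 CPM), and the mice with active IKKβ had 0 CPM.

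Genes that came close were chosen after their values were seen. Loxl2, the next gene considered, lies 106 kb from Gm16867 on the same chromosome and was at 21.1, 27.7, 0 and 0.749 CPM (adjusted p = 0.0556, edgeR). It passed without mixed nuclei (adjusted p = 0.0108, edgeR), at 4 or more markers (0.0462) and in the 4 non-transgenic mice alone (0.0468). Fcrls, a receptor-like gene of the homeostatic list, was at 314, 323, 81.0 and 143 CPM, a log2 fold change of -1.48 (SE 0.26) with an adjusted p of 0.0768 (edgeR), which missed the threshold. It passed by DESeq2's Wald test (adjusted p = 0.000281), and by edgeR with the replicate block (adjusted p = 0.0163), without mouse 4 (0.0337) and without mixed nuclei (0.00441). Over all 11 mice its levels in the 6 mice of the floxed line (199.95 to 329 CPM) and the 5 of the active line (21.02 to 143 CPM) did not overlap. The 2 lowest, at 21.02 and 34.9 CPM, had the active IKKβ switched on, so line and genotype cannot be told apart there. P301S mice without Cre were at 199.95 and 293 CPM in the floxed line and 42.2 CPM in the active line. How many of all genes separate in this way was not counted. P2ry12, used by the rule and so given as a description, averaged 786 CPM in the floxed line and 514 CPM in the active line. Cd9 averaged 159.6 and 75.8 CPM (log2 -1.11, SE 0.28, adjusted p = 0.382, edgeR). edgeR called 0 of the homeostatic list's 19 tested genes, and the list's median log2 fold change was -0.18, with all genes at 0.01. Without mouse 4 that median was 0.0050, and with no filter on low counts 2 of the list's 20 genes were called, against 0.333% of all 21910 genes. With the mixed nuclei left out, 29 genes were called, most of them lower in the active line. The lower ones included Fcrls, Olfml3 and Cst3 of the homeostatic list, Cd9 of the disease-associated list and Apbb1ip of the receptor list. Genes in no list, such as Hpgd, Tmem144 and Edem1, were lower too, so the direction was not particular to the homeostatic list. Mixed nuclei were unequally spread, with 13.5% and 13.7% in the floxed line and 11.6% and 23.7% in the active line, and their part in the result was not tested. A difference in Ikbkb was not detectable, with a log2 fold change of -0.01 (SE 0.19).

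The P301S mice tested whether the baseline levels shift under tau. Of 10843 genes, 0 (0%) were called between P301S and non-transgenic mice by edgeR, with 557 at an unadjusted p under 0.05, while DESeq2's Wald test called 2. The genes with the lowest p, named after their values were seen, were Ctse, encoding the protease cathepsin E, and Tifa, an adaptor that activates NF-κB through Traf6. Tifa was at 12.1, 18.5, 25.0 and 21.7 CPM in the non-transgenic mice and at 42.7, 50.01 and 67.6 CPM in the P301S mice (log2 1.47, SE 0.23, adjusted p = 0.0585, edgeR). The groups did not overlap, but Tifa was named for its low p, so this adds no support. Ctse was at 0, 2.06, 1.47 and 0 CPM and at 9.65, 14.5 and 18.4 CPM (log2 4.01, SE 0.61, adjusted p = 0.0585, edgeR). Both passed the threshold with the mixed nuclei left out and with the line or the age as a covariate. Tifa also passed with doublets left out (adjusted p = 0.0384, edgeR) and by DESeq2's Wald test (adjusted p = 0.00966), where Ctse did not (adjusted p = 0.0869 by edgeR and 0.0555 by DESeq2).

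Genes of the disease-associated list were mostly at higher levels in P301S mice, and 0 were called by edgeR after the filter on low counts. Only 15 of the 22 genes passed that filter, and some are so low in non-transgenic mice that they could pass it only through other groups, so the filter can tilt their directions and median upward. Of these 15, 0 were called, 14 were higher and 1 lower in P301S mice, with a median log2 fold change of 1.66 against 0.00 for all genes, and 11 had an unadjusted p under 0.05. Without P301S mouse 3, where 12 genes were tested, the median was 0.86. With no filter on low counts, 10 of 21 genes were called, all higher, against 0.429% of all 21910 genes. With mixed nuclei left out, 1 member was called, the myosin gene Myo1e (log2 1.82, adjusted p = 0.0250, edgeR). The other genes called in that setting, Cacna1a, Ctse, Ptchd1 and Tifa, are not on the list. The list's summed level was 664, 753, 613 and 508 CPM in the non-transgenic mice and 798, 1171 and 1885 CPM in the P301S mice. The lowest P301S mouse was thus above every non-transgenic mouse by a small margin (798 against 753 CPM). The share of all genes that separate these groups was not counted, so the lack of overlap here and in the single genes below adds no support. P301S mouse 3 had the most and was the P301S mouse of the active line. Apoe was at 234, 251 and 584 CPM in P301S mice (log2 1.34, SE 0.40, adjusted p = 0.594, edgeR), above the 59.9 to 212 CPM of the non-transgenic mice. Without the border macrophage nuclei Apoe was at 198, 200 and 561 CPM in P301S mice against 57.7 to 106 CPM. Axl, a receptor for dying cells, was at 13.8, 11.8 and 75.4 CPM against 3.08 to 10.6 CPM (log2 2.54, SE 0.60, adjusted p = 0.357, edgeR). In the homeostatic list 0 of 19 tested genes were called, 17 were lower and 2 higher, and the median was -0.17, or -0.077 without P301S mouse 3 and -0.32 without P301S mouse 2. The interferon list had a median of 0.47, or 0.23 without P301S mouse 3, with 11 of 12 tested genes higher and 0 called. As only 12 of its 18 genes passed the filter, the same tilt can apply here, and with no filter 2 of 18 were called. The summed level of the border macrophage markers was 325, 205 and 177 CPM in P301S mice, within the range of the non-transgenic mice but for the last, and 6, 9 and 12 of their microglia nuclei had 2 or more of the 9 markers (1.99%, 2.30% and 1.44%).

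Ikbkb, Cx3cr1 and Mapt are the genes on which the study's alleles bear. Ikbkb was at 106, 93.7 and 109 CPM (log2 -0.10, SE 0.13, adjusted p = 0.99988, edgeR). Cx3cr1, with 2 copies in both groups and used by the rule, so given as a description, was at 444, 412 and 534 CPM against 438 to 651 CPM, a log2 fold change of -0.31. Mouse Mapt, the tau gene of the host, was at 290, 284 and 219.5 CPM against 199 to 328 CPM (log2 0.05, SE 0.18), levels at which RNA of neurons was also present in these nuclei. The share of microglia nuclei was 3.32% ± 0.619 (n = 4) in non-transgenic mice and 4.52% ± 2.74 (n = 3) in P301S mice. The difference was 1.20 points (exact permutation test over mice, two-sided p = 0.686). With 4 and 3 mice this test, which doubles the smaller tail, could not give p under 0.05, so it could not separate the groups. The difference turned to -0.372 points without P301S mouse 3, which alone had 7.67%. The median depth was 1944 ± 232 and 1838 ± 307 UMIs (exact permutation p = 0.629). These 2 p-values were not adjusted further, since neither test could give p under 0.05.

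**Figure D5:**
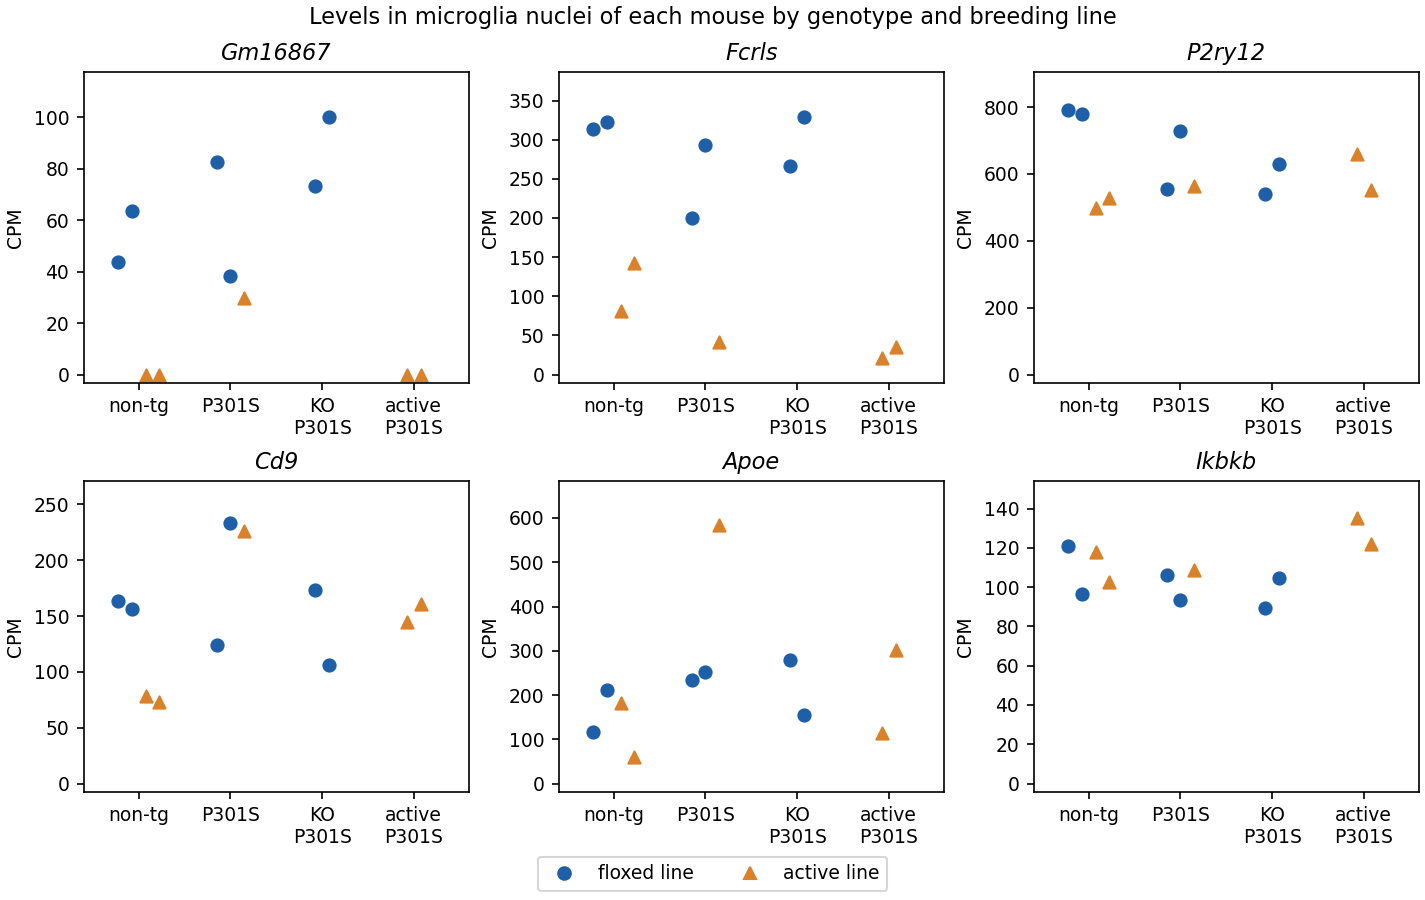
CPM in the microglia nuclei of each of the 11 mice (y axis) for Gm16867, Fcrls, P2ry12, Cd9, Apoe and Ikbkb, by genotype group (x axis; non-tg, non-transgenic; KO, Ikbkb deleted; active, active IKKβ); blue circles are mice of the floxed line and orange triangles mice of the active line. All triangles lie below all circles for Fcrls (21.02 to 143 CPM against 199.95 to 329 CPM) and Gm16867, while for Ikbkb they overlap in the non-transgenic mice. Fcrls and Gm16867 were named for their difference between the lines, and the share of all genes that separate so was not counted. All KO mice are of the floxed line and all mice with active IKKβ are of the active line, so genotype and line are mixed.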

How the data were processed

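The authors isolated nuclei from frozen cortex, sorted them by DAPI, made 10x 3′ libraries, aligned reads to mm10 with Cell Ranger 3.1.0 with pre-mRNA counted, and deposited raw UMI counts per gene and called barcode, used here unnormalised. Genes of 31011 of 31053 identifiers were matched to GENCODE M21 (GRCm38). The limits of 300 to 8000 genes and 5% mitochondrial UMIs are the study's. The study removed doublets with DoubletFinder and tested with MAST, which were not run; here doublets were marked with Scrublet (scanpy 1.11.5) at 0.8% per 1000 barcodes and kept in the main values. Nuclei are not replicates, so UMI counts were summed per mouse. Levels are CPM, and log2 ratios add 1 CPM. Fits used edgeR 4.0.16 in R 4.3.3 (TMM, filterByExpr, quasi-likelihood, all 11 mice in 6 groups of genotype and line for the line contrast and 4 genotype groups for P301S), with DESeq2 1.42.0 as an alternative. Standard errors are the log2 fold change over the square root of F. Permutation tests were exact, two-sided, over 35 splits.

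The members and the gene lists were chosen with earlier results of these data known. Named genes were the rule markers, up to 8 of each list by highest or lowest ratio or by role, the 15 leading genes in no list, called genes, the 10 most variable genes, and Ikbkb, Cx3cr1 and Mapt; others are marked as chosen after their values were seen. Clec7a was not analysed here. Each library is 1 mouse, the labels name no batch, and replicate libraries differed beyond counting noise (chi-square over degrees of freedom 1.77 to 3.21). The fits were tested on simulated counts with known changes and the same spread for all genes. Of 100 genes changed by log2 1, the line contrast recovered 11 and the P301S contrast 49. Of 100 changed by log2 2, they recovered 64 and 93. They also called 5 and 8 unchanged genes. Alternatives were another scaling and test, no filter, stricter nucleus rules, thinning, and leaving out doublets, mixed or border macrophage nuclei or single mice. Some members of the gene lists entered the counts and medians but are not reported here by name.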

Additional observations from a re-analysis of the deposited data

Results flagged for a closer look

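Over the 4 non-transgenic mice, 62 quantities were checked for a mouse that stands apart (its gap to the nearest mouse, over the whole range, above Dixon's 95% critical value), which chance gives in about 1 of 20, and 4 met it. The share of microglia nuclei marked as doublets was 18.8% in mouse 4 and 6.80% to 8.72% in the others. The summed level of the interferon response list was 458 CPM in mouse 3 and 285 to 302 CPM in the others. The summed level of lymphocyte markers was 73.7 CPM in mouse 3 and 8.99 to 16.4 CPM in the others, and Skap1, an adaptor of T cells, made up 54.5 CPM of it. Ikzf1, a lymphoid and microglial factor used by the rule, was at 843 CPM in mouse 3 and 648 to 675 CPM in the others.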

How the results depend on the processing

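The depth of these nuclei, a median of 1725 to 2252 UMIs, 2 mice a line and 3 P301S mice limited every test, so a gene that was not called is not shown to be unchanged. Of the 230 list medians recomputed, 44 moved by more than 1 SD between mice and 1 turned. With doublets left out the medians were 6.01 for homeostatic genes, 2.99 for transcription factors, 4.89 for purinergic receptors and ion channels, 6.10 for receptors and signalling, 2.48 for lysosome and 1.42 for the NF-κB pathway. With mixed nuclei left out they were 6.18, 3.16, 5.05, 6.25, 2.66 and 1.49 in the same order. With nuclei thinned to 1000 UMIs they were 2.89 for transcription factors, 5.08 for purinergic receptors and ion channels, 5.996 for receptors and signalling, 2.48 for lysosome, 1.59 for the NF-κB pathway, 1.96 for interferon response and 0.28 for disease-associated genes. Without the border macrophage nuclei, an alternative added after the data were seen, disease-associated genes were at 0.33 and the border macrophage list turned to -0.0071, as those nuclei were chosen by its markers. Calls between the lines numbered 10 by DESeq2's Wald test, 73 with no filter on low counts, 2 at 4 or more markers, 29 without mixed nuclei, 4 in the 4 non-transgenic mice alone and 0 to 4 when single mice were left out. Calls under P301S numbered 2 by DESeq2's Wald test, 94 with no filter, 1 without doublets, 5 without mixed nuclei, 2 with line and 2 with age (added later) as a covariate. Mice with the same replicate number had correlations of deviations of -0.0036 between the lines and 0.0191, 0.103 and 0.140 for P301S. P301S and non-transgenic mice that differed in line or number had -0.0999 to 0.0637. Whether the numbers pair the mice was not tested. With the replicate block, 4 genes were called between the lines and 0 under P301S. The cause was not tested in any of these. The share of microglia nuclei differed by -0.372 to 2.11 points when single mice were left out. Small log2 fold changes turned sign. Between the lines, Ikbkb was at 0.013 with no filter and 0.079 without doublets, Mapt at -0.0055 without doublets and Cx3cr1 at -0.027 without mixed nuclei, and when single mice were left out Ikbkb lay between -0.18 and 0.14, Mapt between -0.26 and 0.48 and Cx3cr1 between -0.18 and 0.40. Under P301S, Ikbkb was at 0.042 and Mapt at -0.13 without doublets, and Mapt lay between -0.039 and 0.23 when single mice were left out.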
